A study of Mus musculus with 8 samples.

Results

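The costimulatory and coinhibitory ligands described here are 9 genes, Cd80, Cd86, Icosl, Cd274, Pdcd1lg2, Cd276, Cd40, Tnfsf4 and Cd70, listed by name and followed through every sorted subset. All 9 were found among the 25466 genes of the count table. RNA-seq had been performed on medullary thymic epithelial cells (mTECs) from the thymus of wild-type BL6N6 mice, which the study used at 4 to 6 weeks of age. Cells negative for CD45 and CDR1 and positive for Epcam had been sorted by surface Tspan8, a tissue-restricted antigen, and by MHCII into the subsets Tspan8negMHCIIlo, Tspan8negMHCIIhi, Tspan8posMHCIIhi and Tspan8posMHCIIlo, with 2 libraries labelled as biological replicates of each. No subset received a treatment or carried a transgene, and the number of mice behind a library is not given in the sources used here. The comparisons ask how ligand transcripts differed with MHCII, which the study used for maturation, and with Tspan8, which it used to pick out cells that express a given tissue-restricted antigen. In its putative sequence, Tspan8posMHCIIlo cells are late or post-Aire mTECs that follow Tspan8posMHCIIhi. It described Tspan8negMHCIIlo as holding both immature and mimetic mTECs, such as tuft cells. A rise with MHCII below therefore means only a higher level in MHCIIhi than in MHCIIlo, not an order in time.

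T cells need a signal beyond the antigen receptor, and ligands on the presenting cell supply it. CD80 and CD86 bind CD28 and the inhibitory receptor CTLA-4, ICOS ligand binds ICOS, PD-L1 (Cd274) and PD-L2 (Pdcd1lg2) bind the inhibitory receptor PD-1, and OX40 ligand (Tnfsf4) and CD70 bind the TNF receptor family members OX40 and CD27. CD40 is itself a receptor, triggered by CD40 ligand on T cells, so it is grouped with the ligands as a costimulatory partner and not as a ligand. Mature mTECs are known to carry CD80 and CD40, and in the thymic medulla these contacts are known for their part in negative selection, in the development of regulatory T cells and in the maturation of mTECs themselves.

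Several of the genes are neighbours. On GRCm38 Cd274 (ENSMUSG00000016496) lies at chr19:29367455-29388095 and Pdcd1lg2 (ENSMUSG00000016498) at chr19:29410919-29471161, both on the plus strand with 22823 bases between them. Cd80 (ENSMUSG00000075122, chr16:38455561-38496335, plus strand) and Cd86 (ENSMUSG00000022901, chr16:36603869-36666081, minus strand) share a chromosome but are 1789479 bases apart. Icosl (ENSMUSG00000000732) lies at chr10:78069302-78083913 on the plus strand, 25691 bases from Aire, the gene of the autoimmune regulator. Cd40 (ENSMUSG00000017652) lies at chr2:165055627-165072948 on the plus strand, Cd276 (ENSMUSG00000035914) at chr9:58524298-58555437 on the minus strand, Tnfsf4 (ENSMUSG00000026700) at chr1:161395409-161418410 on the plus strand and Cd70 (ENSMUSG00000019489) at chr17:57145997-57149777 on the minus strand. Cd274, Pdcd1lg2 and Cd276 are each overlapped by 1 gene on the opposite strand, and whether the counting used strand is not settled by the sources, so reads of the partner cannot be told apart from theirs.

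Promoter sequence was shown for Cd80, Icosl and Pdcd1lg2, which shared their highest subset, and for Cd274, the neighbour of Pdcd1lg2 that did not. RefSeq promoters on GRCm38.p6 were matched for 5 of the 9 genes, these and Cd276, and each stretch below is the plus strand before the RefSeq start without annotated exon. The Cd80 stretch lies inside the annotated gene (chr16:38455561-38496335), past its annotated start. By that annotation it is intron, so its matches are not upstream of the whole gene. The capitals mark matches on either strand to an NF-kB pattern, GGG, any 5 bases and CC.
Cd80 (chr16:38458683-38458932): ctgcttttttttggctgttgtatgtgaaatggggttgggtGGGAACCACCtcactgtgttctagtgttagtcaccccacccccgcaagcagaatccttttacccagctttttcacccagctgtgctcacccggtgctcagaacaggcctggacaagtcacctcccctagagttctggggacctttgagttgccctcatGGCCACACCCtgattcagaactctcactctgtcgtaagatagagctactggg
Icosl (chr10:78069118-78069301): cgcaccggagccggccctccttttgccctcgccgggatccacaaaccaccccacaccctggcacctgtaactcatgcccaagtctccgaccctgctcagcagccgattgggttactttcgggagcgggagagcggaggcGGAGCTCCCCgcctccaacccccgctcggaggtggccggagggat
Pdcd1lg2 (chr19:29410669-29410918): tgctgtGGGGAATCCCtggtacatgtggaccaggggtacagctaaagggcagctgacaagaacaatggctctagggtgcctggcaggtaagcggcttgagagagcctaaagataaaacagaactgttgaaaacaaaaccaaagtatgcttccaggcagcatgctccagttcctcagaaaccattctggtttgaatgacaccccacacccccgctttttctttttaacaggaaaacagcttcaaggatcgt
Cd274 (chr19:29367188-29367437): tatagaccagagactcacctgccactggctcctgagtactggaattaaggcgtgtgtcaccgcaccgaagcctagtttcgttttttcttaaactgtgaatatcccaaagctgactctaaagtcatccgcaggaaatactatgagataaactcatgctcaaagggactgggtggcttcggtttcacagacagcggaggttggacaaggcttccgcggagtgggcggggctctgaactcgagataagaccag
Matches were found in Cd80, Icosl and Pdcd1lg2 and not in Cd274, but 50.8% of 32851 promoters of the same length (250 bases before to 50 after the start) held this pattern, as did that of Cd276. A stricter NF-kB pattern (GGG, any 2 bases and TTTCC), the interferon response pattern (GAAA, any 2 bases and GAAA) and the GAS pattern (TTC, any 3 bases and GAA), which were searched on both strands and are held by 1.63%, 3.44% and 8.3% of promoters, had no match in the 5 windows. A match is only a run of letters, and the absence of one says nothing of any factor.

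Sequencing depth ranged from 1941518 to 7783841 counts per library, the lowest in replicate 1 of Tspan8posMHCIIlo, and levels are given as CPM, counts scaled to the TMM-adjusted library total. The sort was visible in the transcripts, with Tspan8 at 347.4 to 404.5 CPM in the 4 Tspan8pos libraries and 3.65 to 14.6 CPM in the others, and H2-Ab1 (an MHCII chain) at 2431 CPM or more in the MHCIIhi libraries. H2-Ab1 also reached 1700 to 2074 CPM in Tspan8negMHCIIlo. The epithelial gene Epcam was at 367.1 to 1081 CPM in all 8 libraries. In sorted bulk samples, fewer cells that express a gene and less RNA per cell cannot be told apart. The 2 replicates of a subset differed by more than counting noise. Calls required an adjusted p (edgeR) under 0.01 together with a log2 fold change of 1 or more in size.

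The ligands of CD28 and CTLA-4 were highest in Tspan8negMHCIIhi. Cd80 was at 162 and 143 CPM in Tspan8negMHCIIhi, 56.4 and 45.5 CPM in Tspan8posMHCIIhi, 14.8 and 14.1 CPM in Tspan8posMHCIIlo and 15.5 and 6.84 CPM in Tspan8negMHCIIlo. Both MHCIIhi subsets lay above both MHCIIlo subsets without overlap, while the 2 MHCIIlo subsets overlapped. Cd86 was far lower, at 23.5 and 24.4 CPM in Tspan8negMHCIIhi, 4.38 and 5.28 CPM in Tspan8posMHCIIhi, 2.81 and 3.54 CPM in Tspan8negMHCIIlo and 0.550 and 0.683 CPM in Tspan8posMHCIIlo. The last pair rested on 1 and 5 counts. The ratio of Tspan8negMHCIIhi to Tspan8negMHCIIlo was a log2 fold change of 3.80 ± 0.27 (SE; adjusted p = 2.88e-06) for Cd80 and 2.90 ± 0.32 (adjusted p = 4.41e-05) for Cd86. The replicate means and SDs (n = 2) in Tspan8negMHCIIhi were 153 ± 13.0 CPM for Cd80 and 23.9 ± 0.604 CPM for Cd86.

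Icosl, the ligand of ICOS, had the same highest subset. It was at 628 and 594 CPM in Tspan8negMHCIIhi, 143 and 153 CPM in Tspan8posMHCIIhi, 122 and 144 CPM in Tspan8negMHCIIlo and 55.0 and 53.1 CPM in Tspan8posMHCIIlo. The middle subsets overlapped, with a log2 fold change of 0.15 between Tspan8posMHCIIhi and Tspan8negMHCIIlo (95% interval -0.14 to 0.45), and the libraries of Tspan8posMHCIIlo lay under all others. Icosl rose by a log2 fold change of 2.20 ± 0.14 (SE; adjusted p = 1.32e-06) with MHCII in Tspan8neg cells and by 1.46 ± 0.14 (adjusted p = 5.89e-05) in Tspan8pos cells.

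The ligands of PD-1, whose genes adjoin, did not share a highest subset. Cd274 was at 383 and 221 CPM in Tspan8negMHCIIlo, 226 and 232 CPM in Tspan8negMHCIIhi, 353 and 287 CPM in Tspan8posMHCIIhi and 230 and 186 CPM in Tspan8posMHCIIlo. The 2 libraries of Tspan8negMHCIIlo spanned almost the whole range, and no neighbours in the order of the 4 subsets passed the test. The intervals of its log2 fold changes still bound the size of any difference, from -0.90 to 0.10 for MHCIIhi against MHCIIlo in Tspan8neg cells and from 0.13 to 1.13 in Tspan8pos cells (adjusted p = 0.175 and 0.0865). Pdcd1lg2 was at 28.7 and 29.9 CPM in Tspan8negMHCIIhi, 7.57 and 11.6 CPM in Tspan8posMHCIIhi, 8.15 and 9.43 CPM in Tspan8negMHCIIlo and 4.40 and 4.23 CPM in Tspan8posMHCIIlo. Tspan8negMHCIIhi stood apart from the 3 other subsets, with a log2 fold change of 1.73 ± 0.27 (SE; adjusted p = 0.00043) over Tspan8negMHCIIlo and of -1.61 ± 0.26 (adjusted p = 0.000596) for Tspan8posMHCIIhi against it.

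Cd276 encodes B7-H3, a B7 family member whose receptor is not settled. It was at 18.5 and 15.5 CPM in Tspan8negMHCIIhi, 15.2 and 12.0 CPM in Tspan8negMHCIIlo, 10.6 and 12.0 CPM in Tspan8posMHCIIhi and 10.4 and 10.5 CPM in Tspan8posMHCIIlo. The libraries of Tspan8negMHCIIhi lay above the 6 others, but the range over all 8 libraries was under 2-fold and no comparison of subsets was called. MHCIIhi against MHCIIlo gave a log2 fold change of 0.32 in Tspan8neg cells (95% interval -0.23 to 0.87) and 0.10 in Tspan8pos cells (-0.49 to 0.69).

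The TNF family genes were also highest in Tspan8negMHCIIhi. Cd40, a receptor through which T cells signal to mTECs, was at 218 and 204 CPM in Tspan8negMHCIIhi, 58.0 and 52.2 CPM in Tspan8posMHCIIhi, 36.8 and 42.2 CPM in Tspan8negMHCIIlo and 13.2 and 10.2 CPM in Tspan8posMHCIIlo. The 4 subsets did not overlap. Cd40 rose with MHCII by a log2 fold change of 2.41 ± 0.15 (SE; adjusted p = 1.54e-06) in Tspan8neg cells and by 2.31 ± 0.18 (adjusted p = 1.89e-05) in Tspan8pos cells. Cd70, the ligand of CD27, was at 27.5 and 33.1 CPM in Tspan8negMHCIIhi, 5.78 and 10.4 CPM in Tspan8posMHCIIhi, 3.09 and 4.95 CPM in Tspan8negMHCIIlo and 0.550 and 1.78 CPM in Tspan8posMHCIIlo. The subsets of Cd70 did not overlap either, though the lowest rested on 1 and 13 counts. Its log2 fold change with MHCII was 2.89 ± 0.38 (SE; adjusted p = 0.000152) in Tspan8neg cells.

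Tnfsf4, which encodes OX40 ligand, was close to the limit of detection outside Tspan8negMHCIIhi. It had 35 and 80 counts in Tspan8negMHCIIhi, 9 and 18 counts in Tspan8posMHCIIhi, 2 and 1 counts in Tspan8negMHCIIlo and 0 and 5 counts in Tspan8posMHCIIlo. At this depth the MHCIIlo subsets could not be ordered, since a library at 0 allows up to 3 counts. Set against the 3 counts of Tspan8negMHCIIlo together, the 115 counts of Tspan8negMHCIIhi gave a ratio of 23.7 with a 95% counting interval of 7.91 to 117. Counting intervals and floors cover counting error only, since PCR-amplified reads are not independent molecules. The fit called the difference (adjusted p = 0.000769), but not without replicate 2 of Tspan8negMHCIIhi (adjusted p = 0.0143).

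**Figure D1:**
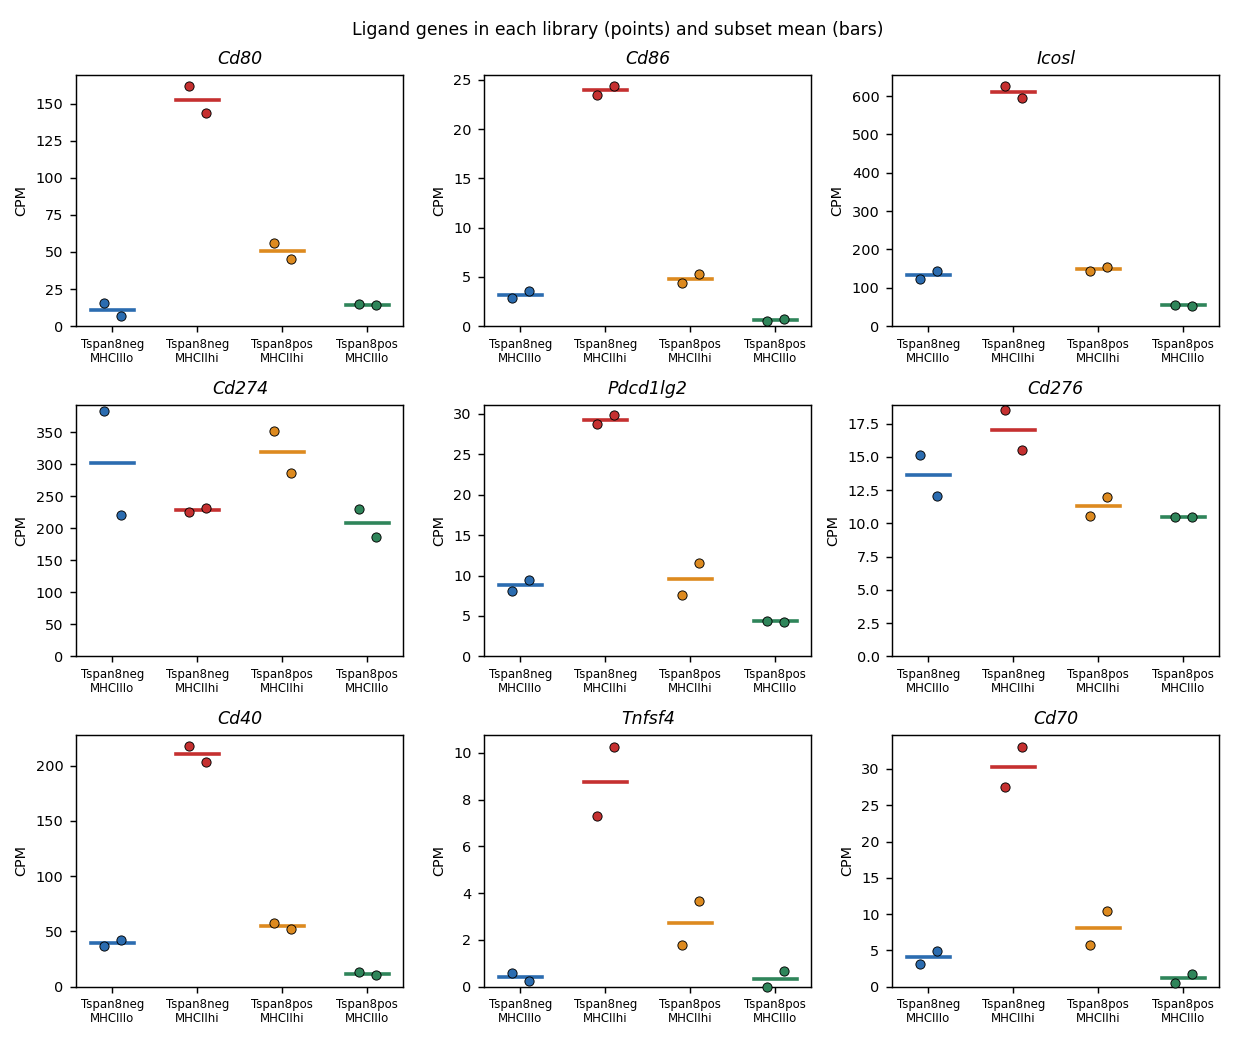
CPM of the 9 genes in each of the 8 libraries, with 1 point per library, a bar at the mean of the 2 libraries of a subset and a separate vertical axis from 0 for each gene. Tspan8negMHCIIhi is highest in 8 panels, as for Cd80 at 162 and 143 CPM, by a narrow margin for Cd276 at 18.5 and 15.5 CPM, and the exception is Cd274, whose subsets overlap.

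Of the 9 genes 7 were called higher in Tspan8negMHCIIhi than in Tspan8negMHCIIlo, while 13.1% of the 17006 genes tested were called higher and 9.67% lower. The 2 not called were Cd274 and Cd276. The median log2 fold change of the 9 was 2.41, beside -0.04 over all genes tested. All 9 passed the filter on low counts, but Tnfsf4 passed through 3 MHCIIhi libraries and Cd86 and Cd70 through 6 libraries outside Tspan8posMHCIIlo, so these had to be low somewhere and the counts are descriptions.

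In Tspan8pos cells MHCIIhi exceeded MHCIIlo for 5 of the 9 genes, Cd80, Cd86, Icosl, Cd40 and Cd70, beside 4.59% of all genes called higher and 2.62% lower, and a median of 1.83 against 0.01. Cd86 rose by a log2 fold change of 2.84 ± 0.46 (SE; adjusted p = 0.00171), Cd70 by 2.43 ± 0.49 (adjusted p = 0.00585) and Cd80 by 1.83 ± 0.27 (adjusted p = 0.00098). Pdcd1lg2 at 1.16 and Tnfsf4 at 2.33 missed the threshold (adjusted p = 0.0296 and 0.064). Only Icosl and Cd40 were called whichever of the 8 libraries was left out. Cd86 was lost without Tspan8posMHCIIhi replicate 2 (adjusted p = 0.0131) or Tspan8posMHCIIlo replicate 2 (0.054), and Cd80 without Tspan8posMHCIIhi replicate 1 (0.0112) or either Tspan8posMHCIIlo replicate (0.0102 and 0.04). Thinning to equal depth also ended the call of Cd86 (0.0487). Cd70 was lost without either Tspan8negMHCIIhi replicate (adjusted p = 0.0116 and 0.0132), without Tspan8posMHCIIhi replicate 2 (0.0496) and without either Tspan8posMHCIIlo replicate (0.0276 and 0.0472).

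Among MHCIIhi cells, those positive for Tspan8 had less of 6 of the 9 transcripts. Cd86 fell by 2.30 ± 0.29 on the log2 scale (SE; adjusted p = 0.000116), Icosl by 2.05 ± 0.13 (9.96e-07), Cd40 by 1.93 ± 0.15 (2.9e-06), Cd70 by 1.91 ± 0.34 (0.00126), Pdcd1lg2 by 1.61 ± 0.26 (0.000596) and Cd80 by 1.58 ± 0.23 (0.00028). Of all genes tested 7.45% were called lower and 11.0% higher in this comparison, with a median of -0.03 against -1.69 for the 9. Tnfsf4 had a log2 fold change of -1.69 that missed the threshold (adjusted p = 0.0291) and passed it in the fit to the 4 MHCIIhi libraries alone (0.00421). Cd274 had a log2 fold change of 0.48 (95% interval -0.01 to 0.98) and Cd276 one of -0.59 (-1.13 to -0.04). The calls of Cd70 and Pdcd1lg2 were lost without Tspan8posMHCIIhi replicate 1 (adjusted p = 0.0217 and 0.0115), and that of Cd70 also without Tspan8negMHCIIhi replicate 2 (0.0189).

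Among MHCIIlo cells 3 of the 9 genes were lower in the Tspan8pos subset, beside 9.34% of all genes called lower and 12.1% higher. Cd40 fell by 1.83 ± 0.19 on the log2 scale (SE; adjusted p = 2.22e-05), Icosl by 1.30 ± 0.14 (3.46e-05) and Cd86 by 2.25 ± 0.50 (0.00419). The call of Cd86, with its few counts in Tspan8posMHCIIlo, was lost with DESeq2 (adjusted p = 0.0193), in the fit to the 4 MHCIIlo libraries (0.0352), after thinning to equal depth (0.0534) and without replicate 1 or 2 of Tspan8negMHCIIhi (0.0103 and 0.0113), replicate 2 of Tspan8negMHCIIlo (0.0217) or replicate 1 or 2 of Tspan8posMHCIIlo (0.0138 and 0.0728). Cd80 had a log2 fold change of 0.39 (95% interval -0.31 to 1.09), Cd70 one of -1.45 (-2.63 to -0.26) and Pdcd1lg2 one of -1.04 (-1.76 to -0.32). Cd274 was at -0.55 (-1.05 to -0.04) and Cd276 at -0.37 (-0.96 to 0.23). Thinning gave a call for Cd70 (-4.01, adjusted p = 0.00572). Tnfsf4 had 5 counts in Tspan8posMHCIIlo against 3 in Tspan8negMHCIIlo, a ratio of 1.42 with a 95% counting interval of 0.277 to 9.16.

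The effect of Tspan8 was then compared between the MHCII levels by the interaction, the Tspan8pos to Tspan8neg log2 fold change in MHCIIhi minus that in MHCIIlo. Cd80 was the 1 gene of the 9 called, beside 2.36% of all genes called lower and 2.24% higher, with an interaction of -1.97 ± 0.39 (SE; adjusted p = 0.00873). It combined a log2 fold change of -1.58 in MHCIIhi with 0.39 in MHCIIlo. The call was lost when a library of Tspan8negMHCIIhi, Tspan8posMHCIIhi or Tspan8posMHCIIlo was left out (adjusted p = 0.0305 and 0.0235, 0.0253 and 0.0411, and 0.0349 and 0.0738 for replicates 1 and 2), and after thinning to equal depth (0.17). Icosl at -0.74 (95% interval -1.17 to -0.32; adjusted p = 0.0294) and Cd274 at 1.03 (0.32 to 1.73; adjusted p = 0.0606) missed the threshold. Cd274 passed it without Tspan8negMHCIIlo replicate 2, at 1.39 (adjusted p = 0.000542). For Cd40 the interaction was -0.10 (-0.64 to 0.43). The others not called were at -0.06 for Cd86, -0.22 for Cd276, -0.46 for Cd70, -0.57 for Pdcd1lg2 and -2.09 for Tnfsf4 (adjusted p = 0.319 to 1).

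The remaining pairs of subsets set the extremes. Tspan8posMHCIIlo lay below Tspan8negMHCIIhi for 7 of the 9 genes, beside 14.6% of all genes called lower and 14.7% higher, by 5.14 ± 0.41 on the log2 scale for Cd86, 4.34 ± 0.45 for Cd70 and 4.24 ± 0.18 for Cd40 (adjusted p = 2e-06, 1.49e-05 and 3.53e-08). Those of Tnfsf4, Icosl, Cd80 and Pdcd1lg2 had log2 fold changes of -4.02, -3.50, -3.41 and -2.77. The call of Tnfsf4 in this pair was lost without Tspan8negMHCIIhi replicate 2 (adjusted p = 0.0129). Cd274 had a log2 fold change of -0.14 between these subsets (95% interval -0.65 to 0.36) and Cd276 one of -0.69 (-1.26 to -0.12; adjusted p = 0.045). Tspan8posMHCIIhi against Tspan8negMHCIIlo gave 1 call of 9, Cd80, which was 2.22 ± 0.28 higher on the log2 scale (adjusted p = 8.31e-05), beside 14.4% of all genes called higher and 10.3% lower. For Cd86, Icosl, Pdcd1lg2, Cd40 and Cd70 these 2 subsets, which held the middle of the order of levels, did not differ past the threshold. Their log2 fold changes were 0.59, 0.15, 0.12, 0.48 and 0.98, and Cd274 and Cd276 had 0.08 and -0.27. Tnfsf4, not called either, had 27 counts against 3, a ratio of 7.06 with a 95% counting interval of 2.17 to 36.4. The lowest mean was in Tspan8negMHCIIlo for Cd80 and in Tspan8posMHCIIlo for Cd86, Icosl, Pdcd1lg2, Cd40 and Cd70.

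Levels were compared between genes as CPM per kb of merged exon. In Tspan8negMHCIIhi Icosl led at 132 ± 5.15 CPM per kb (SD, n = 2), followed by Cd274 at 63.1 ± 1.17 and Cd40 at 61.8 ± 2.90, which were within their spread of each other. Cd80 at 41.2 ± 3.51 and Cd70 at 35.9 ± 4.72 came next, then Pdcd1lg2 at 14.9 ± 0.421, Cd86 at 6.54 ± 0.165, Tnfsf4 at 4.76 ± 1.14 and Cd276 at 4.65 ± 0.580. In the 3 other subsets Cd274 led, at 83.5 ± 31.7 CPM per kb in Tspan8negMHCIIlo, 88.3 ± 12.8 in Tspan8posMHCIIhi and 57.4 ± 8.69 in Tspan8posMHCIIlo. Icosl was second there, at 28.7, 32.0 and 11.7 CPM per kb. In Tspan8posMHCIIlo every other gene was at or under 3.90 CPM per kb. These are transcript levels and say nothing of protein on the cell surface.

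**Figure D2:**
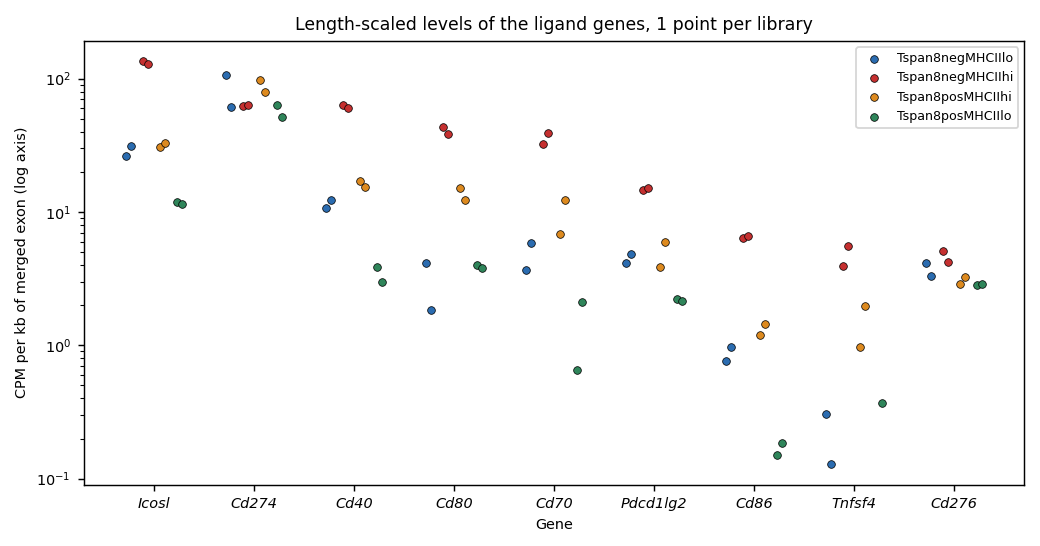
CPM per kb of merged exon on a log axis for the 9 genes, ordered by their mean in Tspan8negMHCIIhi, with 1 point per library coloured by subset. Icosl leads in Tspan8negMHCIIhi at 132 CPM per kb and Cd274 in the 3 other subsets, and the library with 0 counts of Tnfsf4 is not drawn.

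Across the 8 libraries the genes were described by the Pearson correlation of their log2 CPM, where the points share subsets and depth. Cd86, Icosl, Pdcd1lg2, Cd40 and Cd70 correlated with each other at 0.952 to 0.993. Cd80 correlated with Tnfsf4 at 0.932 and with those 5 at 0.801 to 0.831. Cd274 correlated with every other member at -0.03 to 0.14. Among 11034 candidate genes, those most like Cd40 were Irf4, which encodes an interferon regulatory factor, at 0.996, Fgf21 at 0.994 and Aifm2 at 0.992. The genes most like Icosl were Gbp4 (0.997), Gm37416 (0.997) and Tkt (0.996), those most like Cd86 were Adam11 (0.998), Bdkrb1 (0.995) and C1qtnf6 (0.994), and those most like Cd80 were Klhl2 (0.991), Ace (0.99) and Cflar (0.99), the last an inhibitor of death receptor signalling. For Tnfsf4 they were Celsr1, Fezf2 (a transcriptional regulator of mTECs) and Mtch2 (0.983, 0.983 and 0.982), for Cd70 Reln, Vgf and Igfn1 (0.994, 0.986 and 0.986), and for Pdcd1lg2 Nptx1, Serpinc1 and Zfp362 (0.992, 0.991 and 0.991). Those of Cd274 were Pdlim1 (0.979), Rcn2 (0.947) and Thsd4 (0.937). With the variance stabilizing transformation in place of log2 CPM, only 1 of the 3 genes stayed among the 3 most alike for Cd80, Cd86, Tnfsf4 and Cd70, and Fezf2 went to rank 19 for Tnfsf4.

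The nearest tested genes along the chromosome differed in how far they shared a member's pattern. Beside Icosl, Dnmt3l, a cofactor of DNA methyltransferases 5679 bases away, rose with MHCII by a log2 fold change of 4.37 in Tspan8neg and 4.62 in Tspan8pos cells (adjusted p = 2.34e-06 and 4.5e-05). With a mean of 14.2 CPM over all libraries, Dnmt3l had low MHCIIlo levels, which are not given here. D10Jhu81e on the other side was at 0.15 and -0.12. Beside Cd276, Insyn1 was at 1.34 (adjusted p = 0.00446) and 0.33 and Nptn at 0.35 and -0.22. Beside Cd70, Tnfsf9, the gene of the costimulatory 4-1BB ligand 38239 bases away, rose by 2.74 and 2.53 (adjusted p = 1.54e-06 and 1.81e-05), and C3, on the other side, was at -0.30 and 1.42 (adjusted p = 0.000353 for the last). Beside Tnfsf4, Prdx6 was at -1.41 (adjusted p = 1.63e-05) and 0.05, and Tnfsf18 was not called. Plgrkt, 64 bases from Cd274, had log2 fold changes of -0.69 and -0.01, and Ric1, beyond Pdcd1lg2, of -0.19 and -0.07. The neighbours of Cd80, Adprh at -0.01 and -0.45 and Timmdc1 at -0.02 and 0.24, were not called. For Cd86 these values were -0.88 and -0.22 for Casr and 0.29 and -1.19 for Ildr1, of which the last was called (adjusted p = 0.000348). For Cd40 they were -0.23 and -0.40 for Ncoa5 and 0.65 and 3.07 for Cdh22 (adjusted p = 0.00263 for the last).

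Of 24 other ligands and partners of T cell costimulation, 20 were tested. With MHCII in Tspan8neg cells 8 rose and 4 fell, beside 13.1% and 9.67% of all genes, with a median log2 fold change of 0.89. Btnl2, a butyrophilin-like inhibitor of T cells, was at 49.9 and 56.9 CPM in Tspan8negMHCIIhi and 2.81 and 7.07 CPM in Tspan8negMHCIIlo, and rose by a log2 fold change of 3.39 ± 0.31 (SE; adjusted p = 1.19e-05). Tnfsf15 (TL1A) rose by 2.90 ± 0.44 (adjusted p = 0.000391), and Btn1a1, at 0 in both Tspan8negMHCIIlo libraries, was at least 7.84-fold higher against a floor of 3 counts over the subset. Cd48, a leukocyte adhesion ligand, fell by 2.76 ± 0.66 (adjusted p = 0.00589). In Tspan8pos cells 4 rose and none of the 20 fell (median 0.19), beside 4.59% and 2.62% of all genes. They were Tnfsf9, Btnl2, Vcam1 and Tnfrsf14, by 2.53, 2.15, 1.87 and 1.15.

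With Tspan8 the other ligands divided, while none of the 9 was called higher with edgeR. In MHCIIhi cells 4 rose and 4 fell (median -0.04), beside 11.0% and 7.45% of all genes. Vtcn1 (B7-H4, a coinhibitory B7 family member) was at 8.96 and 10.2 CPM in Tspan8posMHCIIhi and 0.832 and 0.256 CPM in Tspan8negMHCIIhi, a log2 fold change of 4.22 ± 0.66 (SE; adjusted p = 0.000503). Ceacam1, a ligand of the inhibitory receptor TIM-3, was at 239.6 and 245.0 CPM against 16.2 and 20.6 CPM and rose by 3.70 ± 0.16 (adjusted p = 1.75e-07). Both sets of libraries were far apart. Cd83 and Cd200 fell by 2.13 and 1.77 on the log2 scale. In MHCIIlo cells 5 rose and 4 fell (median -0.50), beside 12.1% and 9.34% of all genes, among them Vtcn1, Ceacam1 and Tnfsf15 by 4.48, 2.93 and 2.10, and Cd48 by a log2 fold change of -3.86.

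**Figure D3:**
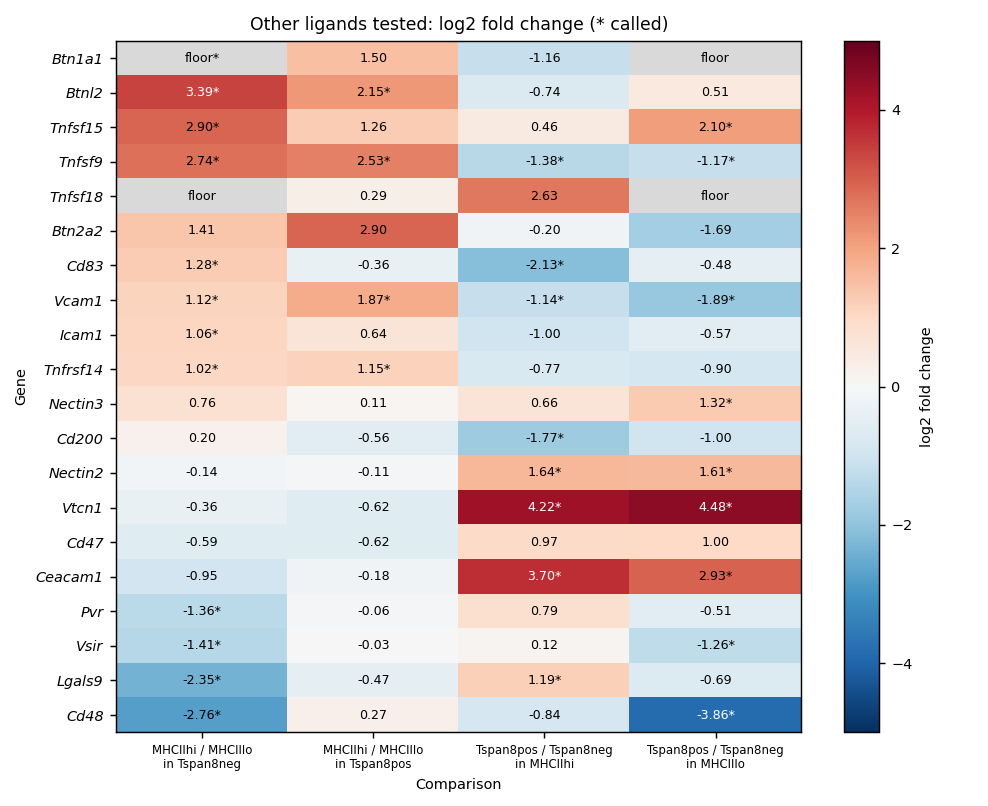
Log2 fold changes of the 20 other ligands tested in the same 4 comparisons, printed in each cell, with an asterisk for a call. The word floor stands, with no fold, where the reference subset (MHCIIlo or Tspan8neg) had at most 3 counts over its libraries together. Btnl2 at 3.39 and Tnfsf9 at 2.74 are higher in Tspan8negMHCIIhi, and Ceacam1 at 3.70 and Vtcn1 at 4.22 in Tspan8posMHCIIhi.

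CD40 signals through TRAF adaptors to NF-kB. Of 15 genes of that path, 8 rose and 1 fell with MHCII in Tspan8neg cells (median 1.08), where Cd40 itself rose and 13.1% of all genes were called higher and 9.67% lower. Traf1 rose by a log2 fold change of 1.60 ± 0.13 (SE; adjusted p = 5.56e-06), from 81.5 and 82.1 CPM to 256 and 241 CPM, Rel by 1.42 ± 0.13 (1.47e-05) and Nfkbia, the inhibitor induced by NF-kB, by 1.32 ± 0.13 (1.79e-05). Traf5 fell by 1.58 ± 0.21 (adjusted p = 0.000165). In Tspan8pos cells none of the 15 was called with edgeR (median 0.30), beside 4.59% of all genes higher and 2.62% lower, although Cd40 rose there too. Traf1 missed the call there only by the limit on size, with a log2 fold change of 0.87 (adjusted p = 0.000973 in edgeR). It was at 165.1 and 160.1 CPM in Tspan8posMHCIIhi and 93.4 and 85.5 CPM in Tspan8posMHCIIlo. With Tspan8, 1 fell in MHCIIhi cells (Birc2, by 1.31), beside 7.45% of all genes. In MHCIIlo cells 1 rose with Tspan8 (Rel, 1.02), beside 12.1% of all genes. Of 9 genes of interferon gamma signalling and PD-L1 stability, 1 was called in the 4 comparisons, Ifngr1. It fell by 1.83 ± 0.19 with MHCII in Tspan8neg cells (adjusted p = 3.19e-05), beside 9.67% of all genes called lower. Cd274 had a log2 fold change of -0.40 there.

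Receptors of the ligands are made by T cells, and 6 of the 7 listed were tested. With MHCII in Tspan8neg cells 4 fell (median -2.44), with log2 fold changes of -3.23 for Cd27, -2.83 for Pdcd1, -2.69 for Cd28 and -2.19 for Ctla4, beside 9.67% of all genes. Tnfrsf4 (OX40) was at 21.2 and 25.2 CPM in Tspan8negMHCIIhi and 7.87 and 14.4 CPM in Tspan8negMHCIIlo, a log2 fold change of 1.05 that missed the threshold (adjusted p = 0.0128). Of the 6, 5 were lower in Tspan8posMHCIIlo than in Tspan8negMHCIIlo, beside 9.34% of all genes. In Tspan8negMHCIIlo Cd28 was at 19.1 and 28.3 CPM. The summed level of 11 thymocyte markers was 511.5 to 1438 CPM in that subset and 76.3 to 237.9 CPM in the 6 other libraries, and that of 9 B cell and plasma cell markers was 1222 to 2120 CPM against 52.2 to 197.7 CPM. The part of these cells in the levels of the ligands in Tspan8negMHCIIlo was not tested.

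Markers of dendritic cells and macrophages, which also carry these ligands, were in sum highest in Tspan8negMHCIIhi, as were 8 of the 9 genes. The summed level of 14 such markers was 613.3 to 663.7 CPM in Tspan8negMHCIIhi, 412.4 to 417.1 CPM in Tspan8posMHCIIhi, 133.4 to 197.3 CPM in Tspan8negMHCIIlo and 166 to 174.2 CPM in Tspan8posMHCIIlo. Much of the sum in the MHCIIhi subsets came from Lyz2. It was at 279.5 and 330.8 CPM in Tspan8negMHCIIhi and 244.4 and 236.5 CPM in Tspan8posMHCIIhi. Of the 11 tested, 6 rose and none fell with MHCII in Tspan8neg cells, beside 13.1% and 9.67% of all genes. Among the 6 were Adgre1 by a log2 fold change of 4.04, Batf3 by 3.24, Lyz2 by 2.93 and Flt3 by 2.13. With MHCII in Tspan8pos cells 2 rose, beside 4.59% of all genes, and 4 fell with Tspan8 in MHCIIhi cells, beside 7.45%. In MHCIIlo cells, where Cd40, Icosl and Cd86 fell with Tspan8, the summed levels overlapped. There 2 markers fell and 1, Cd68, rose by 1.71, beside 9.34% of all genes called lower and 12.1% higher. Cd68 was at 41.1 to 46.9 CPM in the Tspan8pos and 10.1 to 23.7 CPM in the Tspan8neg libraries. In Tspan8posMHCIIlo Lyz2 was at 71.5 and 63.8 CPM, Zbtb46 at 34.1 and 31.7 CPM and Ccr7 at 10.4 and 12.0 CPM. Zbtb46 and Ccr7 were higher in Tspan8negMHCIIhi, at 71.1 and 70.6 CPM and at 150.4 and 142.8 CPM. Clec9a was at 0 in 3 MHCIIlo libraries. In Tspan8negMHCIIhi Clec9a was at 0.208 and 1.28 CPM, Siglech at 0.416 and 0.769 CPM and Cx3cr1 at 1.46 and 1.92 CPM, and Itgax, which encodes CD11c, was at 4.16 and 6.15 CPM there against 9.27 and 25.7 CPM in Tspan8negMHCIIlo. Ptprc, the gene of CD45, by which haematopoietic cells had been removed, was at 11.9 and 22.8 CPM in Tspan8negMHCIIhi and 89.3 and 205 CPM in Tspan8negMHCIIlo. Aire was also highest in Tspan8negMHCIIhi, at 2658 and 2476 CPM against 402.1 and 541.1 CPM in Tspan8posMHCIIhi. The part of dendritic cells and macrophages in the levels of the 9 genes was not tested further.

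**Figure D4:**
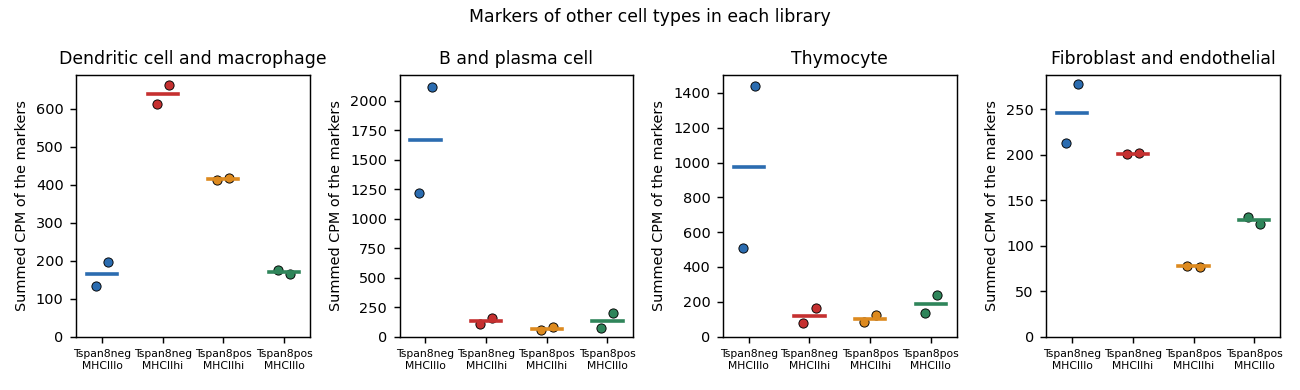
Summed CPM of markers of 4 kinds of other cells in each library, with a bar at the subset mean and a separate axis from 0 in each panel. Dendritic cell and macrophage markers are in sum highest in Tspan8negMHCIIhi at 613.3 to 663.7 CPM, with Lyz2 the largest part there. B cell and thymocyte markers are highest in Tspan8negMHCIIlo.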

How the data were processed

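RNA-seq was available for 8 libraries of sorted mouse mTECs, grouped by the Tspan8 and MHCII status and the replicate number in the labels. A single table of estimated counts, not normalized, was deposited by the authors, who made it with Salmon 1.8.0 on Gencode vM10 according to the methods and processing notes. All values are whole numbers. The authors normalized with DESeq2 1.30.0, and no such values were used here. The labels name a strand-specific mRNA kit and the methods pre-amplified, tagmented cDNA. Pre-amplification can widen the spread of low genes.

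Symbols and coordinates came from a later GENCODE release on GRCm38, which named 25336 of 25466 identifiers and left 130 without a symbol. Counts were tested with edgeR 4.0.16 in R 4.3.3 by the two-sided quasi-likelihood test with TMM, filterByExpr and a mean per subset over all 8 libraries. P-values were adjusted by Benjamini-Hochberg over 17006 genes. SEs were taken from the fitted log2 fold change and its F statistic. The common dispersion was 0.024, and 2 against 2 libraries cannot reach p = 0.05 in an exact permutation test. Alternatives were the DESeq2 1.42.0 Wald test and size factors, other filters and thresholds, the 4 libraries of a comparison alone, a replicate block, thinning and leaving out each library. The edgeR test was tried on simulated counts for MHCIIhi against MHCIIlo in Tspan8neg cells, and the other steps were not. Over the genes tested, same-numbered libraries deviated together at correlations of 0.004 to 0.092, which cannot settle whether they were paired. The numbers were not taken to pair them. Summed thymocyte markers were higher in replicate 2 than in replicate 1 of every subset. P-values measure the spread between the sequenced samples.

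All 9 genes were named in every comparison, with at most 4 called genes of each further list by absolute log2 fold change, the 3 genes of highest Pearson correlation (log2 CPM, prior count 2, mean of at least 10 CPM) and the nearest tested gene on each side. The genes most like Cd276 are not reported here. Ptprc, Itgax, Clec9a, Siglech, Cx3cr1, Zbtb46, Ccr7, Tnfrsf4 and, in Tspan8pos cells, Traf1 were named after their values were seen. The members and lists were chosen with earlier results of these data known.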

Additional observations from a re-analysis of the deposited data

Results flagged for a closer look

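Cd80 was the gene whose Tspan8 effect differed between the MHCII levels by a test of the difference itself. The interaction of Tspan8 and MHCII was -1.97 on the log2 scale (SE 0.39, adjusted p = 0.00873 in edgeR), from a log2 fold change of -1.58 in MHCIIhi and 0.39 in MHCIIlo cells. Both Tspan8posMHCIIhi libraries (56.4 and 45.5 CPM) lay under both Tspan8negMHCIIhi libraries (162 and 143 CPM), while the MHCIIlo libraries overlapped, with 15.5 and 6.84 CPM in Tspan8negMHCIIlo on either side of 14.8 and 14.1 CPM in Tspan8posMHCIIlo. The call was lost when either library of Tspan8negMHCIIhi, Tspan8posMHCIIhi or Tspan8posMHCIIlo was left out (adjusted p = 0.0235 to 0.0738) and after thinning to equal depth (0.17). The cause of the difference was not tested.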

How the results depend on the processing

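Of 1052 fold changes recomputed under the alternatives, 990 kept their direction and side of the threshold, 34 lost a call, 7 gained one and 21 changed sign. None of the 21 was called in the main test. The number of the 9 genes called in Tspan8posMHCIIhi against Tspan8negMHCIIlo went from 1 to 2 at an adjusted p under 0.05, and the 1 interaction called went to 0 after thinning to 1941518 counts. Leaving out 1 library gave 0 to 1 interactions called lower, 0 to 1 called higher, and 2 to 5 genes called higher with MHCII in Tspan8pos cells. With replicate number as a block no call of the 9 genes changed, with 7, 5, 6 and 3 calls in the 4 comparisons and an interaction of -2.06 for Cd80 (adjusted p = 0.000858), while the calls among all genes in the interaction went from 783 to 1236.

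After thinning, the sign changed for Cd80 (-0.34) and Tnfsf4 (-1.25) in Tspan8pos against Tspan8neg MHCIIlo cells, for the interactions of Cd86 (1.04), Cd276 (0.78) and Cd70 (1.63), and for Cd276 in Tspan8posMHCIIhi against Tspan8negMHCIIlo (0.32). Leaving out 1 library, Cd274 ranged from -0.76 to 0.04 with MHCII in Tspan8neg cells, -0.26 to 0.55 in Tspan8posMHCIIhi against Tspan8negMHCIIlo and -0.30 to 0.019 in Tspan8posMHCIIlo against Tspan8negMHCIIhi. In MHCIIlo cells Cd80 ranged from -0.11 to 1.05 and Tnfsf4 from -3.93 to 1.08 with Tspan8, and Pdcd1lg2 from -0.21 to 0.41 in Tspan8posMHCIIhi against Tspan8negMHCIIlo. Interactions ranged from -0.23 to 0.19 for Cd86, -0.34 to 0.046 for Cd40, -2.75 to 2.25 for Tnfsf4 and -0.93 to 0.93 for Cd70.

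The cause of these changes was not tested, beyond the lower counts that thinning leaves by construction. Thinning also ended the calls of Pdcd1lg2 with MHCII in Tspan8neg cells (adjusted p = 0.0121) and, of Tspan8 in MHCIIhi cells, of Cd86 and Pdcd1lg2 (0.0309 and 0.0186), ended those of Cd86 with MHCII in Tspan8pos cells (0.0487) and with Tspan8 in MHCIIlo cells (0.0534), and gave one for Cd70 in the latter (-4.01, 0.00572). Tnfsf4 could not be tested at 10 counts in 4 libraries. Cd86, Tnfsf4 and Cd70 had 0 to 13 counts in Tspan8posMHCIIlo, 0 to 1 in the shallowest library (replicate 1) and 5 to 13 in the deepest (replicate 2).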
